A study of Mus musculus with 12 samples.

Results

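The genes described here encode alpha and beta tubulin, the pair of proteins that make up microtubules. They are the alpha tubulin genes Tuba1a, Tuba1b and Tuba4a and the beta tubulin genes Tubb2a, Tubb2b, Tubb3, Tubb5 and Tubb6, taken by symbol from a deposited table of 21937 genes. All 8 were found, and all 8 passed the filter on low values that left 14987 genes for testing. RNA had been sequenced from a light membrane fraction of brain enriched for myelin, the sheath that oligodendrocytes wrap around axons. The mice were wild type males of the inbred strain c57Bl6/N, aged 18 postnatal days (P18), 75 postnatal days (P75), 6 months or 24 months, and each age had 3 samples, 12 in all. The labels do not say whether the samples came from separate animals or from pools, so the p-values below measure the spread between these samples.

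Microtubules are hollow polymers of alpha and beta tubulin dimers. They serve as tracks for motor proteins in axons and in oligodendrocyte processes, along which mRNAs such as that of Mbp (myelin basic protein) travel to the sheath. Mammals have several genes for each subunit, and the encoded isotypes are alike over most of their length but differ in an acidic tail at the C-terminus, where many tubulin modifications are placed. Tubulin mRNAs are also subject to autoregulation: when free dimers are in excess, the protein Ttc5 recognises the first amino acids of tubulin as they leave the ribosome, and the mRNA is degraded.

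The start of the coding sequence is shown because it encodes the signal for autoregulation. The first 30 bases are given 5′ to 3′ from GENCODE vM21 (mouse build GRCm38), with the 4 codons of the signal in capitals.
Tuba1a (chromosome 15): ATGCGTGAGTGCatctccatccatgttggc
Tuba1b (chromosome 15): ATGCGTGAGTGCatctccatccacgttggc
Tuba4a (chromosome 1): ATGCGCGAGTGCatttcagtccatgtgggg
Tubb2a (chromosome 13): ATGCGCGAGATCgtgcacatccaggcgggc
Tubb2b (chromosome 13): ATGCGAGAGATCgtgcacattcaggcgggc
Tubb3 (chromosome 8): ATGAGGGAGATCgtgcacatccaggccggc
Tubb5 (chromosome 17): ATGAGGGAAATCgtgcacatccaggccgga
The 4 codons were spelled in 2 ways among the 3 alpha members and in 5 ways among the 5 beta members, Tubb6 included.

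The end of the coding sequence is shown for 4 beta members because it encodes the tail in which the isotypes differ. The last 75 bases, stop codon included, are given from the same annotation, with capitals where a base differs from Tubb5, or has no counterpart there, in an alignment of the whole coding sequences.
Tubb5: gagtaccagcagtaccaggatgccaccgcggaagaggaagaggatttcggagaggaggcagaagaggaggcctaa
Tubb2a: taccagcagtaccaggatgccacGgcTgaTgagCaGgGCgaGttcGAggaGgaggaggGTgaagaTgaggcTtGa
Tubb2b: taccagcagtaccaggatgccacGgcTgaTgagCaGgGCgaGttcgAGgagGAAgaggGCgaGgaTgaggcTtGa
Tubb3: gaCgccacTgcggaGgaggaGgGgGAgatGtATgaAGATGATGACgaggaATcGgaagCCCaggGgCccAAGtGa
Tubb2a, Tubb2b and Tubb3 differed from Tubb5 at 16, 19 and 32 of these bases. Among the alpha members, Tuba1a and Tuba1b encode a tyrosine as the last residue, the one that is removed and put back in the detyrosination cycle, whereas Tuba4a encodes no such residue.

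The near identity of some members limits how well their reads can be told apart. Over the whole coding sequence Tuba1a and Tuba1b were 98.3% identical and Tubb2a and Tubb2b 96.5%, and the other pairs within a family lay between 80.2% and 85.9%. Of all stretches of 50 bases in the principal coding transcript of Tuba1a, 72.9% also occurred in a transcript of another gene. The shares were 73.8% for Tuba1b, 49.6% for Tubb2a and 39.3% for Tubb2b. Tuba4a (1.11%), Tubb5 (0.115%), Tubb3 (0%) and Tubb6 (0%) were almost free of such stretches. Reads that map to several genes may have been dropped or split in the counting, so the levels of Tuba1a, Tuba1b, Tubb2a and Tubb2b are uncertain in a way that those of the other members are not.

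Depth was 20299052 to 27214385 reads in genes per sample, with 16949 to 17261 genes detected. Mbp, the marker that defines the fraction, took 4.76% to 20.8% of all normalised counts. P18 replicate 3 stood apart: its Mbp value was 0.461 times the mean of the other P18 samples, and the summed counts of the 8 tubulins were 1.26 times as high. Tubb2a (1.54 times) and Tuba4a (1.40 times) deviated most in that library, and Tubb2b (0.967) and Tubb6 (0.925) did not share the deviation. Member results that this library moved by more than 1.5 times, or across the threshold, are given with and without it. Neuronal genes were present as well: 10 neuronal markers together took between 0.606% and 0.879% of counts in P18 samples, between 0.869% and 0.984% in P75 samples, between 0.833% and 0.945% in 6-month samples and between 0.748% and 0.824% in 24-month samples, and none of the 10 was at 0 in all samples of an age. Snap25, 1 of the markers, is likely to make up much of these shares. It averaged 107596 counts over all samples. The 10 markers summed to 198014 in P18 replicate 3 and to a mean of 167450 in the other P18 samples. These values come from different sets of samples, and the part of Snap25 in single samples is not given here. In such a fraction, fewer cell fragments of a type and less RNA per fragment cannot be told apart.

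Normalised counts were lower in the 24-month fraction than in the P18 fraction for every member but Tubb6. A gene is said to have passed, and to have risen or fallen, where its adjusted p was under 0.05 in limma with Benjamini-Hochberg adjustment over all 14987 genes. Between 24 months and P18, 0 members rose, 7 fell and 1 did not pass, while 62.5% of all genes tested were called (32.0% higher and 30.5% lower). The median log2 fold change of the members was -0.50, against -0.0051 for all genes. The count was 4 of 8 without P18 replicate 3 and also 4 of 8 when values were rescaled to the total count. Tuba1a, Tubb2a, Tubb2b and Tubb3 passed in both cases.

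The steps between these ages differed from gene to gene. Between P75 and P18, 1 member rose (Tuba1b), 2 fell (Tuba1a and Tubb2b) and 5 did not pass, with 40.4% of all genes called (21.7% higher and 18.7% lower) and a median of -0.20 over the members, against 0.017 over all genes. Between 6 months and P75, 2 rose (Tuba1a and Tuba4a), 4 fell (Tuba1b, Tubb2a, Tubb2b and Tubb3) and 2 did not pass, with 52.4% of all genes called (27.1% higher and 25.4% lower) and medians of -0.16 and 0.0029. Between 24 months and 6 months, 0 rose, 3 fell (Tuba1a, Tuba4a and Tubb2b) and 5 did not pass, with 19.2% of all genes called (10.8% higher and 8.34% lower) and medians of -0.24 and 0.030. In this last step the count was 1 of 8, Tuba1a, without any 1 of 4 libraries: 6 months replicate 1, 6 months replicate 2, 24 months replicate 1 or 24 months replicate 2. Over all 4 ages together, 6 of 8 members passed the moderated F test of limma, against 77.4% of all genes, and Tubb5 (adjusted p = 0.0633) and Tubb6 (adjusted p = 0.999) did not. The 3 steps and the whole span share samples, so their counts are not independent.

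**Figure D1:**
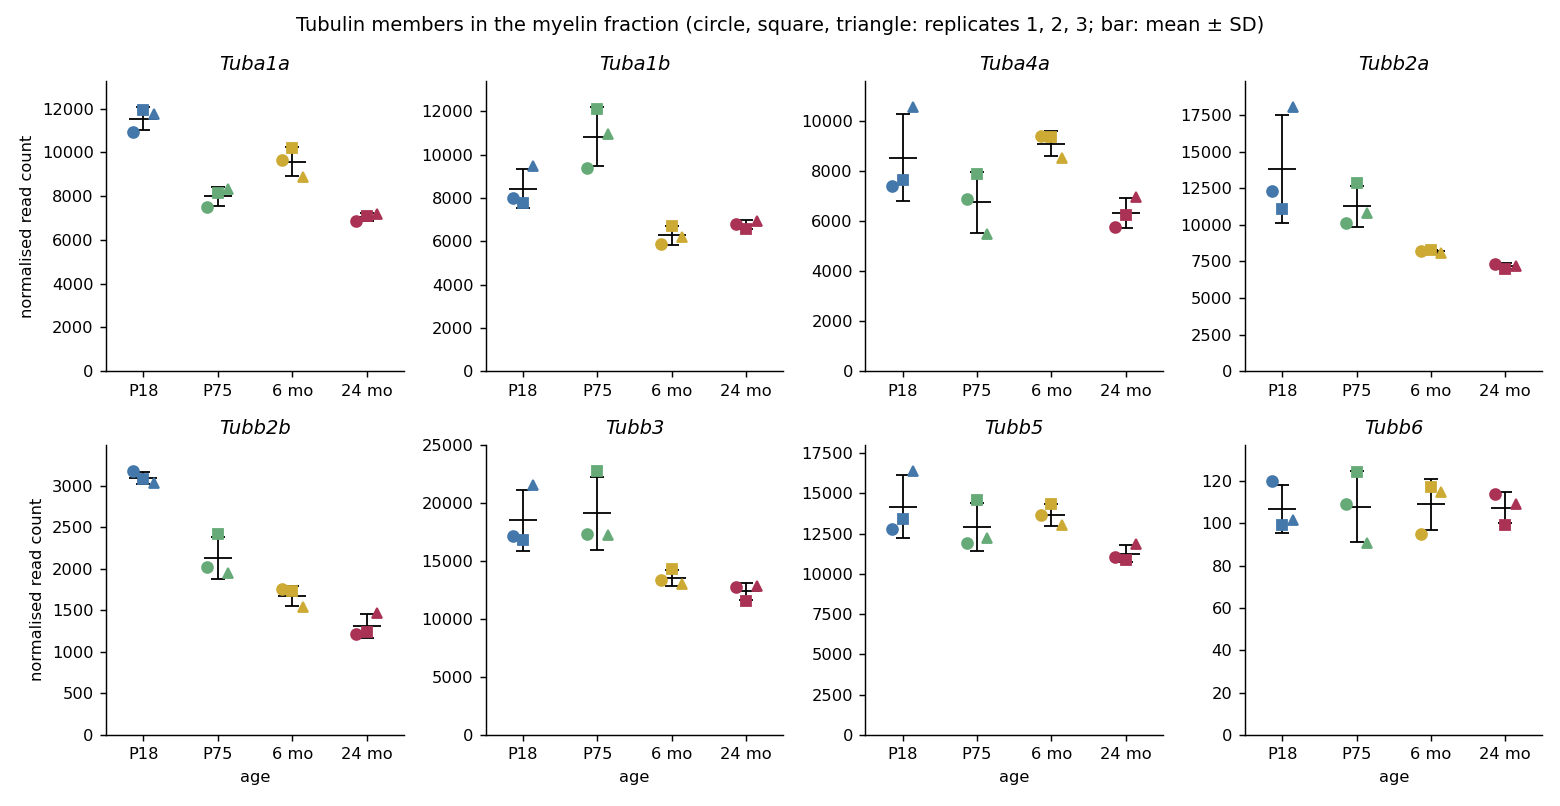
Normalised read counts (vertical axes, each from 0) of the 8 tubulin members at P18, P75, 6 months and 24 months (horizontal axes). Circles, squares and triangles are replicates 1, 2 and 3 and bars are mean ± SD (n = 3); Tubb2b is lower at each later age, with 1209 to 1469 at 24 months against 3025 to 3174 at P18, while Tubb6 lies between 90.7 and 124.2 throughout.

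Tuba1a, the main alpha tubulin of developing neurons, had 10945, 11926 and 11744 normalised read counts at P18, 7492, 8167 and 8319 at P75, 9648, 10193 and 8886 at 6 months and 6869, 7099 and 7202 at 24 months. P18 was highest and 24 months lowest, and no 2 ages that were neighbours in level overlapped. It fell by 0.53 ± 0.089 on the log2 scale at P75 against P18 (SE, n = 3 at each age, as for all fold changes below; limma adjusted p = 2.06e-04). At 6 months it rose by 0.26 ± 0.089 against P75 (limma adjusted p = 0.0214), and at 24 months it fell by 0.44 ± 0.089 against 6 months (limma adjusted p = 0.00435). The P75 level therefore lay below both the younger and the following age. Over the whole span it fell by 0.71 ± 0.089 at 24 months against P18 (limma adjusted p = 3.27e-06). The rise at 6 months did not pass without P75 replicate 1 (0.21, limma adjusted p = 0.0875), without 6 months replicate 2 (0.21, limma adjusted p = 0.0884) or with total-count scaling (0.25, limma adjusted p = 0.0729).

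Tuba1b, an alpha tubulin made in most cell types, followed another course. Its counts were 8010, 7783 and 9452 at P18, 9390, 12092 and 10971 at P75, 5880, 6724 and 6211 at 6 months and 6814, 6541 and 6933 at 24 months. P75 was highest, with a small overlap with P18, since P75 replicate 1 lay just below P18 replicate 3, and both older ages lay below every sample of the younger ones. Tuba1b rose by 0.36 ± 0.11 at P75 against P18 (limma adjusted p = 0.0130), and this call was lost without P18 replicate 2 (0.31, limma adjusted p = 0.0579) or without P75 replicate 2 (0.28, limma adjusted p = 0.0714). Its fall at 6 months against P75, by 0.78 ± 0.11 (limma adjusted p = 1.85e-05), was the largest of any member in that step and passed under every alternative run. No further difference was detected at 24 months against 6 months, where its log2 fold change was 0.11 ± 0.11 (95% interval -0.098 to 0.32, limma adjusted p = 0.494). It fell by 0.31 ± 0.11 at 24 months against P18 (limma adjusted p = 0.0182), but not without P18 replicate 3 (-0.22, limma adjusted p = 0.0696), without 24 months replicate 2 (-0.29, limma adjusted p = 0.0647), with quantile normalization (-0.23, limma adjusted p = 0.0585) or with total-count scaling (-0.23, limma adjusted p = 0.137).

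Tuba4a, an alpha tubulin abundant in brain, had 7399, 7636 and 10526 counts at P18, 6875, 7865 and 5470 at P75, 9376, 9353 and 8492 at 6 months and 5744, 6226 and 6931 at 24 months. The 6-month samples lay above all P75 and all 24-month samples, and P18 overlapped with 6 months only through P18 replicate 3. Tuba4a rose by 0.44 ± 0.14 at 6 months against P75 (limma adjusted p = 0.0146), which did not pass without P75 replicate 3 (0.30, limma adjusted p = 0.0924). It fell by 0.53 ± 0.14 at 24 months against 6 months (limma adjusted p = 0.0176). Without 6 months replicate 1, 6 months replicate 2, 24 months replicate 1 or 24 months replicate 2 this fall did not pass, with limma adjusted p = 0.0653, 0.0599, 0.0758 and 0.0614. At P75 against P18 its log2 fold change was -0.34 ± 0.14 and did not pass (limma adjusted p = 0.0685), but passed without P18 replicate 1 (-0.43, limma adjusted p = 0.0400) or without P75 replicate 2 (-0.46, limma adjusted p = 0.0272). Without P18 replicate 3, the library that stood apart, it was -0.17 (limma adjusted p = 0.280). Over the whole span it fell by 0.42 ± 0.14 at 24 months against P18 (limma adjusted p = 0.0160). The size of that fall depended on P18 replicate 3, without which it was -0.26 (limma adjusted p = 0.0782). It also missed the threshold without 24 months replicate 1 (-0.36, limma adjusted p = 0.0690) and with total-count scaling (-0.34, limma adjusted p = 0.0745).

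Among the beta members, Tubb2a and Tubb2b are neighbours in sequence and neuronal isotypes, and the second is known for its part in cortical development. Tubb2a had 12309, 11072 and 18017 counts at P18, 10126, 12829 and 10791 at P75, 8210, 8278 and 8067 at 6 months and 7342, 6989 and 7204 at 24 months. The level was lower at each later age, with no overlap after P75, and P18 replicate 3 was far above the other P18 samples. Tubb2a had a log2 fold change of -0.27 ± 0.14 at P75 against P18, which did not pass (limma adjusted p = 0.142) except without P18 replicate 2 (-0.41, limma adjusted p = 0.0336), and without P18 replicate 3 it was -0.061 (limma adjusted p = 0.672). It fell by 0.45 ± 0.14 at 6 months against P75 (limma adjusted p = 0.0135), but not without P75 replicate 2 (-0.35, limma adjusted p = 0.0740). The 24-month and 6-month samples did not overlap, yet the change of -0.19 ± 0.14 did not pass (limma adjusted p = 0.364). The whole fall at 24 months against P18 was 0.91 ± 0.14 on the log2 scale (limma adjusted p = 3.37e-05), and it was -0.70 without P18 replicate 3, where it still passed.

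Tubb2b had 3174, 3080 and 3025 counts at P18, 2024, 2411 and 1949 at P75, 1752, 1732 and 1532 at 6 months and 1209, 1243 and 1469 at 24 months. Every sample of an age lay below every sample of the age before it, and Tubb2b was the only member called lower in each of the 3 steps. It fell by 0.55 ± 0.098 at P75 against P18 (limma adjusted p = 3.81e-04), by 0.34 ± 0.098 at 6 months against P75 (limma adjusted p = 0.00761) and by 0.36 ± 0.098 at 24 months against 6 months (limma adjusted p = 0.020). Across the span the mean was 1307 ± 141.4 counts at 24 months and 3093 ± 75.1 at P18 (SD, n = 3 each), a fall of 1.25 ± 0.098 on the log2 scale (limma adjusted p = 1.75e-08) that passed under every alternative. This was the largest change of any member in any comparison made. The middle step did not pass without P75 replicate 2 (-0.25, limma adjusted p = 0.0515). The last did not pass without 6 months replicate 1, 6 months replicate 2, 24 months replicate 1 or 24 months replicate 2 (limma adjusted p = 0.0805, 0.0729, 0.0862 and 0.0857).

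Tubb3, the class of beta tubulin used as a marker of neurons, had 17130, 16826 and 21545 counts at P18, 17276, 22735 and 17239 at P75, 13311, 14284 and 13002 at 6 months and 12781, 11496 and 12828 at 24 months. The younger ages overlapped and lay above all samples of the older ages. At P75 against P18 its log2 fold change was 0.042 ± 0.13 (95% interval -0.21 to 0.29, limma adjusted p = 0.821), with a sign that turned in some alternatives and a value of 0.16 without P18 replicate 3 (limma adjusted p = 0.322). Tubb3 fell by 0.48 ± 0.13 at 6 months against P75 (limma adjusted p = 0.00452), a call just lost with quantile normalization (-0.32, limma adjusted p = 0.0507). The 24-month samples were all below the 6-month samples, but the change of -0.13 ± 0.13 did not pass (limma adjusted p = 0.501). It fell by 0.57 ± 0.13 at 24 months against P18 (limma adjusted p = 9.30e-04). At the step in which Tubb3 fell, 6 months against P75, 7 of the 10 neuronal markers rose and 1 fell, with a median log2 fold change of 0.41. Of all genes, 27.1% rose and 25.4% fell in that step. The synaptic vesicle gene Syt1 had a log2 fold change of 2.34 ± 0.13 in that step, whereas Snap25, which encodes a protein of the synaptic fusion machinery, had -0.68 ± 0.17. The part of neuronal RNA in these differences was not tested.

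Tubb5, a beta tubulin made in nearly all cells, had 12753, 13379 and 16380 counts at P18, 11889, 14593 and 12237 at P75, 13665, 14363 and 13001 at 6 months and 11045, 10838 and 11861 at 24 months. All 24-month samples lay below all samples of the other ages, which overlapped with each other. Tubb5 fell by 0.33 ± 0.11 at 24 months against P18 (limma adjusted p = 0.0199), but not without P18 replicate 3 (-0.22, limma adjusted p = 0.0840), without 24 months replicate 1 (-0.31, limma adjusted p = 0.0549), without 24 months replicate 2 (-0.30, limma adjusted p = 0.0709) or with total-count scaling (-0.25, limma adjusted p = 0.134). The step from 6 to 24 months gave -0.28 ± 0.11 and did not pass (limma adjusted p = 0.0903), though it passed when only these ages were fitted (limma adjusted p = 0.0307) or without P18 replicate 3 (limma adjusted p = 0.0365). Neither earlier step passed, with -0.13 ± 0.11 at P75 against P18 (limma adjusted p = 0.379; -0.023 without P18 replicate 3, limma adjusted p = 0.884) and 0.088 ± 0.11 at 6 months against P75 (limma adjusted p = 0.533).

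Tubb6, a beta tubulin that is low in brain, had 120.0, 99.4 and 101.5 counts at P18, 109.2, 124.2 and 90.7 at P75, 95, 117.2 and 114.8 at 6 months and 113.9, 99.5 and 109.2 at 24 months. The samples of all ages overlapped. Its log2 fold change at 24 months against P18 was 0.011 with a 95% interval from -0.28 to 0.30 (limma adjusted p = 0.957). The 95% intervals of Tubb2b, Tubb2a and Tuba1a in that comparison lay wholly below this interval. Those of Tuba4a (-0.70 to -0.14), Tubb5 (-0.55 to -0.10) and Tuba1b (-0.52 to -0.10) overlapped with it. That of Tubb3 (-0.82 to -0.32) ended only just below it. All these intervals use the normal distribution and are narrower than the t test of limma would give, so Tubb3 is not clearly separated. Differences in fold change between members were not tested. The next values are those of Tubb6 again. In the 3 steps its log2 fold changes were 0.0077, 0.018 and -0.016, and none passed (limma adjusted p = 0.975, 0.930 and 0.956). Without P18 replicate 3 it had -0.028 at P75 against P18 and -0.025 at 24 months against P18.

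**Figure D2:**
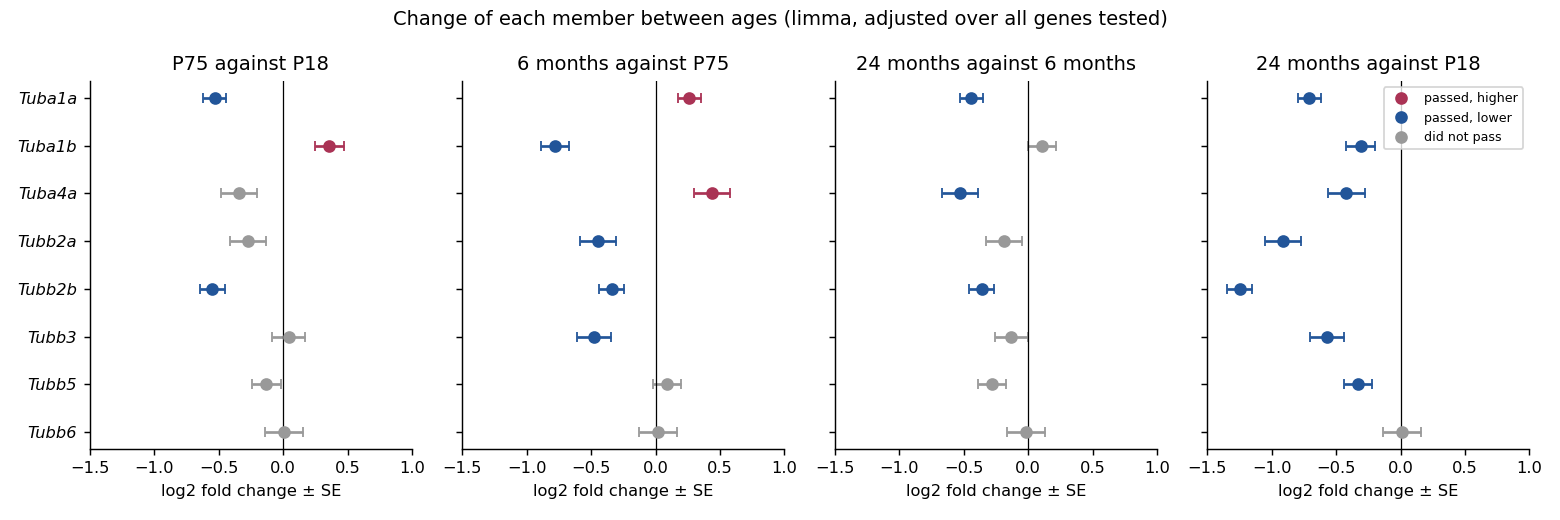
Log2 fold change ± SE (horizontal axes) of each member (rows) in the 4 comparisons, from limma with 3 samples per age. Red points passed and were higher at the later age, blue points passed and were lower and grey points did not pass; in 24 months against P18, 7 of 8 points are blue, from -1.25 for Tubb2b to -0.31 for Tuba1b.

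The share of the 8 members together in all normalised counts was 0.321 ± 0.0718% in P18 samples, 0.316 ± 0.0403% in P75 samples, 0.274 ± 0.010% in 6-month samples and 0.225 ± 0.0132% in 24-month samples (SD, n = 3 each). Single samples at 24 months (0.217% to 0.240%) lay below all samples of the other ages (0.267% to 0.403%). Because Mbp alone took up to 20.8% of a library, the share was also computed with Mbp left out of the total. It was then 0.376 ± 0.0598%, 0.334 ± 0.0405%, 0.293 ± 0.00944% and 0.240 ± 0.0119% at the successive ages. By these means the order of the ages was the same on both scales. The place of P18 rested in part on P18 replicate 3, at 0.403% with Mbp counted and 0.445% with Mbp left out. The other P18 samples were at 0.294% and 0.267% with Mbp counted, below the P75 mean of 0.316%. With Mbp left out they were at 0.346% and 0.337%, above the P75 mean of 0.334% but within the range of P75 samples (0.308% to 0.381%).

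Levels of different genes were compared per kilobase of the principal coding transcript. On that scale Tubb3 was the highest member, with a mean of 8496 counts per kilobase over all ages, followed by Tubb2a (6275), Tuba1a (5014), Tubb5 (4908), Tuba1b (4628), Tuba4a (2696), Tubb2b (939.5) and Tubb6 (61.4). Tubb4, the gene now named Tubb4a and a beta tubulin of oligodendrocytes and neurons, is not a member but was higher still, with 10004 counts per kilobase. Tubb2c, now named Tubb4b, had 4896. The order between genes is uncertain where their reads cannot be told apart equally well. Stretches shared with other genes made up 0% of Tubb3, but 72.9% of Tuba1a, 73.8% of Tuba1b and 49.6% of Tubb2a. If shared reads were dropped, the levels of Tuba1a, Tuba1b and Tubb2a are too low, and their place below Tubb3 may not hold.

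Within the alpha family the mix of isotypes changed place between ages. Of the summed counts per kilobase of Tuba1a, Tuba1b, Tuba4a, Tuba1c and Tuba8, Tuba1a held 44.6 ± 3.31%, 33.6 ± 2.11%, 43.2 ± 0.844% and 38.4 ± 0.734% in the order P18, P75, 6 months, 24 months (SD, n = 3 each). Tuba1b held 33.5 ± 1.22%, 46.8 ± 2.17%, 29.3 ± 1.51% and 38.1 ± 1.12% at the same ages, and Tuba4a 20.7 ± 2.29%, 17.9 ± 2.77%, 26.0 ± 0.890% and 21.7 ± 1.34%. Tuba1a thus led at P18 and 6 months and Tuba1b at P75, while at 24 months their ranges overlapped (37.7% to 39.2% and 37.3% to 39.4%). Tuba1c held at most 0.158% and Tuba8 at most 1.77% in any sample. These shares rest on the division of reads between Tuba1a and Tuba1b, which is uncertain for the reason given above.

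In the beta family Tubb4 and Tubb3 led at every age. Of the summed counts per kilobase of the 7 beta genes, Tubb3 held 23.3 ± 0.310%, 27.9 ± 0.949%, 20.9 ± 0.429% and 23.2 ± 0.657% at P18, P75, 6 months and 24 months, against 28.7 ± 1.88%, 23.9 ± 2.47%, 32.0 ± 0.660% and 28.0 ± 0.168% for Tubb4. Tubb3 was thus above Tubb4 at P75 and below it at the other ages, in every sample. Tubb2a held 15.7 ± 0.540% at 24 months and 19.9 ± 2.37% at P18, and Tubb2b held 2.10 ± 0.162% at 24 months and 3.38 ± 0.531% at P18. Tubb5 held 12.6 ± 0.337%, 13.4 ± 0.698%, 14.9 ± 0.107% and 14.9 ± 0.268% at the successive ages, a share that was higher at the older ages, although its own counts did not rise in any step. Tubb6 stayed between 0.116% and 0.227%. The beta sum was 2.94 ± 0.180, 2.76 ± 0.232, 2.82 ± 0.0348 and 2.80 ± 0.0885 times the alpha sum per kilobase at the successive ages, and the ranges of all ages overlapped. Stretches shared with other genes made up 72.9% of Tuba1a and 73.8% of Tuba1b, but 0% of Tubb3 and 0.184% of Tubb4. If shared reads were dropped, the alpha sum is too low in proportion, so the size of this ratio is uncertain. The beta shares have a like limit, since 49.6% of Tubb2a and 50.9% of Tubb2c was shared.

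**Figure D3:**
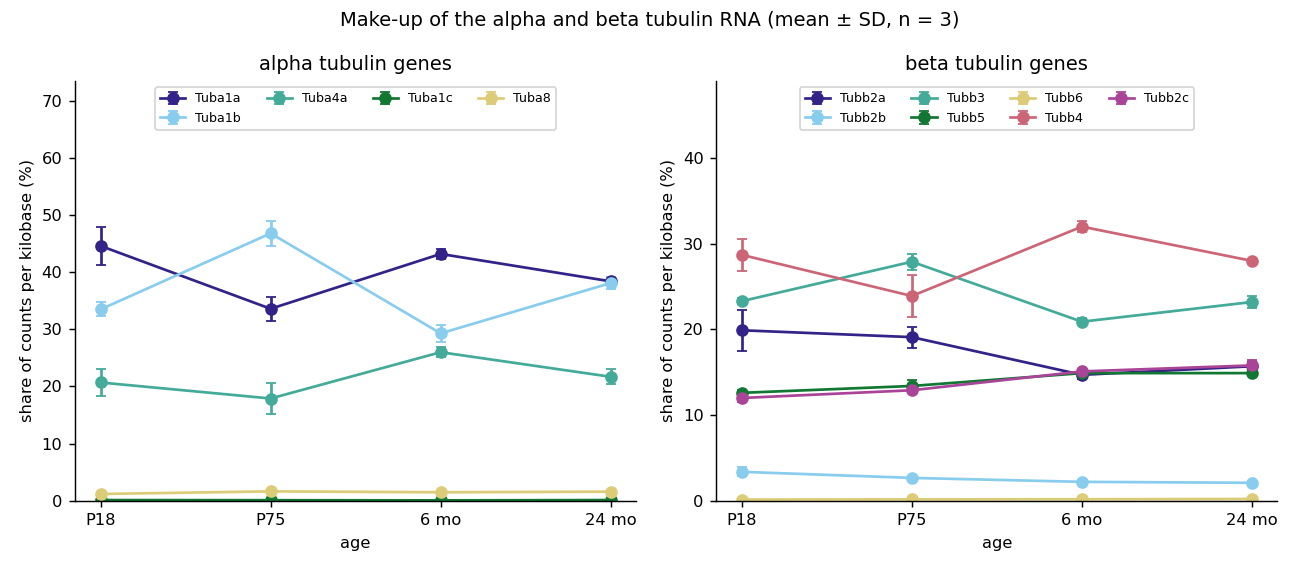
Share (%) of each gene in the summed counts per kilobase of the alpha (left) and beta (right) tubulin genes at 4 ages; points are means and bars SD (n = 3). The lines of Tuba1a and Tuba1b cross between P18 and P75 and again between P75 and 6 months, with Tuba1b at 46.8% at P75 and 29.3% at 6 months.

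Ratios of 2 members within a sample do not depend on how samples were scaled to each other. The pairs were chosen after their values had been seen and are given as a description, with no test. Tuba1b over Tuba1a was 0.732, 0.653 and 0.805 at P18, 1.25, 1.48 and 1.32 at P75, 0.609, 0.660 and 0.699 at 6 months and 0.992, 0.921 and 0.963 at 24 months. P75 was highest, and the 24-month samples lay below all P75 samples and above all samples of the other ages. Tubb3 over Tubb5, a pair with almost no shared stretches, was 1.34, 1.26 and 1.32 at P18, 1.45, 1.56 and 1.41 at P75, 0.974, 0.994 and 1.0 at 6 months and 1.16, 1.06 and 1.08 at 24 months, with no overlap between any 2 ages. Tuba4a over Tuba1b averaged 1.01 ± 0.0974, 0.627 ± 0.119, 1.45 ± 0.125 and 0.931 ± 0.0803 in the order of the ages. Tubb2a over Tubb2b ranged from 3.59 to 6.07 and overlapped between ages. P18 replicate 3 was at 5.96 in that ratio and the other P18 samples at 3.59 to 3.88.

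**Figure D4:**
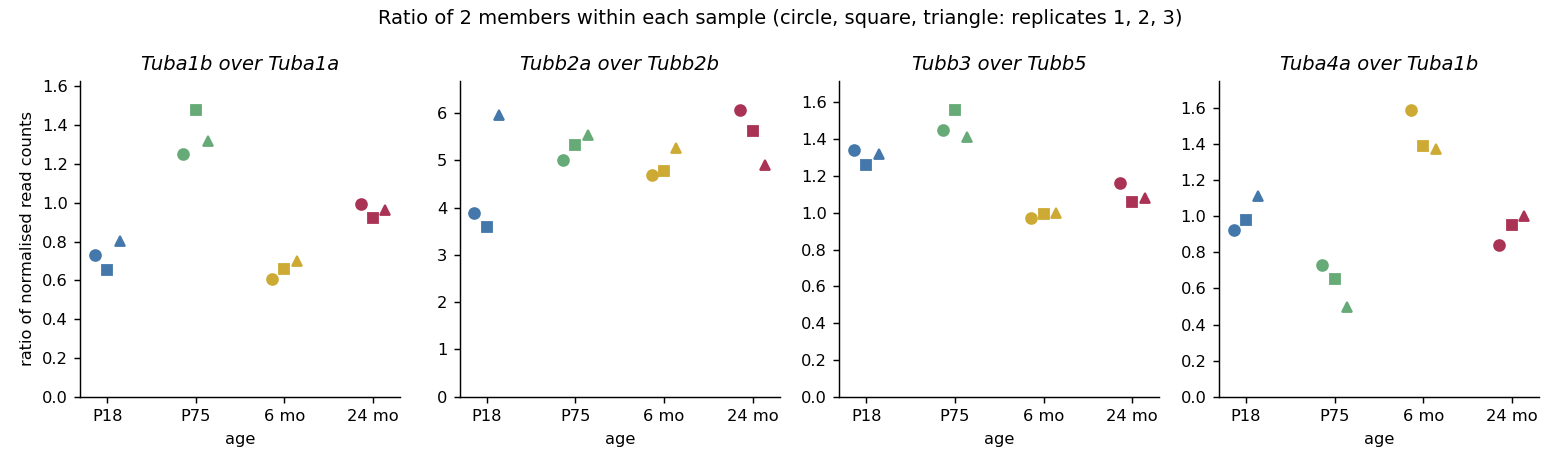
Ratio of normalised read counts of 2 members within each sample (vertical axes, from 0) by age; circles, squares and triangles are replicates 1, 2 and 3. Tuba1b over Tuba1a lies at 1.25 to 1.48 at P75 and at 0.609 to 0.992 in the other ages, and Tubb3 over Tubb5 is separated between all 4 ages.

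The other tubulin genes were mostly scarce. Of 12 listed, 8 passed the filter on low values, and Tuba3a, Tuba3b, Tubal3 and Tubb1 did not, with no value above 4.32 in any sample. Tubb4 had 24783, 26478 and 29811 counts at P18, 19991, 23392 and 15399 at P75, 25345, 25983 and 22922 at 6 months and 17953, 16872 and 18527 at 24 months. Its level was high at P18 and 6 months and low at P75 and 24 months, the order also seen in Tuba1a. It fell by 0.48 ± 0.14 at P75 against P18 (limma adjusted p = 0.0113), rose by 0.36 ± 0.14 at 6 months against P75 (limma adjusted p = 0.0409) and fell by 0.48 ± 0.14 at 24 months against 6 months (limma adjusted p = 0.0265). Of the 8 tested, 4 fell and 0 rose at 24 months against P18, a share of 50%, against 62.5% of all genes (30.5% lower). These were Tubb4 (-0.60 ± 0.14), Tubg1 (-0.67 ± 0.12) and Tubg2 (-0.60 ± 0.11), the gamma tubulins that seed microtubules, and the delta tubulin gene Tubd1 (-0.62 ± 0.22), all with a limma adjusted p of at most 0.0211. Tube1, the epsilon tubulin of centrioles, rose by 0.66 ± 0.16 at P75 against P18 (limma adjusted p = 0.00464).

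Among genes that fold tubulin into dimers, more fell than rose between 6 months and P75. Of 21 tested genes, among them subunits of the chaperonin CCT and of prefoldin, 2 rose, 11 fell and 8 did not pass in that step, with a median log2 fold change of -0.30 and 61.9% called, against 52.4% of all genes. The tubulin cofactor genes Tbca (-1.40 ± 0.11) and Tbcc (-1.07 ± 0.14) and the prefoldin subunit gene Pfdn4 (-1.28 ± 0.12) fell most, and Tcp1, a CCT subunit, rose by 0.37 ± 0.085. At P75 against P18, 3 rose and 3 fell (28.6% called, against 40.4% of all genes), and at 24 months against 6 months 3 rose and 1 fell (19.0% called, against 19.2%). At 24 months against P18, 3 rose, 11 fell and 7 did not pass (66.7% called, against 62.5% of all genes), with Pfdn5 up by 1.01 ± 0.17 and Tbcel, which acts on tubulin dimers, at -0.97 ± 0.087. Ttc5, the reader of the autoregulation signal, was named after its values were seen. It fell by 0.45 ± 0.078 at 24 months against P18 (limma adjusted p = 1.02e-04).

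Of 20 tested genes that modify tubulin, 0 rose and 6 fell at P75 against P18. This was 30% of the list, against 40.4% of all genes (18.7% lower), and the median of the list was near 0, at -0.035. Sirt2, a deacetylase of alpha tubulin found in the sheath, fell by 2.66 ± 0.12, Atat1, which acetylates alpha tubulin, by 1.12 ± 0.12 and Vash1, which removes the tyrosine at its end, by 1.21 ± 0.28. Hdac6, the other deacetylase of alpha tubulin in the list, did not pass, with 0.043 ± 0.081 (limma adjusted p = 0.701). At 6 months against P75, 4 rose and 5 fell (45.0% called, against 52.4% of all genes). The polyglutamylase gene Ttll7 rose by 0.88 ± 0.16 and the deglutamylase gene Agbl4 by 0.97 ± 0.21, while Vash2 fell by 0.89 ± 0.14 and Ccdc23, now named Svbp and the partner of the vasohibins, by 0.88 ± 0.14. Ttll6, another polyglutamylase gene, fell by 2.81 ± 0.56 in that step and rose by 1.78 ± 0.56 at 24 months against 6 months, but its mean over all samples was only 6.11 counts, and it was named after its values were seen. At 24 months against 6 months, 1 rose and 4 fell (25.0% called, against 19.2% of all genes), with Ttll7 at -0.78 ± 0.16. Over the whole span, 24 months against P18, 1 rose and 10 fell (55.0% called, against 62.5% of all genes), with a median of -0.38.

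Of 20 genes of microtubule-associated proteins, 1 rose and 11 fell at P75 against P18, 7 rose and 3 fell at 6 months against P75, 0 rose and 7 fell at 24 months against 6 months, and 2 rose and 10 fell at 24 months against P18. The shares called were 60%, 50%, 35% and 60% in these comparisons, against 40.4%, 52.4%, 19.2% and 62.5% of all genes, and the medians of the log2 fold changes were -0.30, 0.20, -0.23 and -0.21. Dcx (-0.78 ± 0.12), a protein of migrating neurons, and Dclk2 (-0.73 ± 0.093) fell at P75 against P18. Mtap1a, which encodes a mature axonal and dendritic protein, rose by 1.0 ± 0.12 at 6 months against P75 and fell by 0.53 ± 0.12 at 24 months against 6 months. At 24 months against P18, Map6d1 (-1.02 ± 0.12) and Map1lc3a (-0.98 ± 0.098) fell most, and Mtap1a rose by 0.43 ± 0.12.

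Among 11 genes of sequestering and severing proteins, Stmn2, a stathmin of growing axons that binds free tubulin, fell by 0.62 ± 0.092 at P75 against P18, by 0.36 ± 0.092 at 6 months against P75 and in all by 0.97 ± 0.092 at 24 months against P18. Stmn1, another stathmin, rose by 0.30 ± 0.12 at P75 against P18 and fell by 0.59 ± 0.12 at 6 months against P75, the directions also called for Tuba1b. The rise of Stmn1 had a limma adjusted p of 0.0479 and did not pass without P18 replicate 3. The list had 1 up and 4 down at P75 against P18 (0 up and 3 down without P18 replicate 3), 3 up and 4 down at 6 months against P75, 0 up and 1 down at 24 months against 6 months and 2 up and 5 down at 24 months against P18, with medians of -0.15, -0.12, -0.070 and -0.22. The shares called were 45.5%, 63.6%, 9.09% and 63.6%, against 40.4%, 52.4%, 19.2% and 62.5% of all genes.

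Proteins at microtubule ends and nucleation factors completed the lists. Of 17 genes of end-binding proteins, 3 rose and 7 fell at P75 against P18, 7 rose and 3 fell at 6 months against P75, 0 rose and 6 fell at 24 months against 6 months, and 1 rose and 10 fell at 24 months against P18, with medians of -0.20, 0.074, -0.28 and -0.23. These were 58.8%, 58.8%, 35.3% and 64.7% of the list, against 40.4%, 52.4%, 19.2% and 62.5% of all genes. Apc fell by 1.29 ± 0.12 and Mapre1, which encodes the plus-end protein EB1, by 0.88 ± 0.10 at 24 months against P18. Of 15 nucleation genes, 4 rose and 0 fell, 2 rose and 6 fell, 1 rose and 1 fell, and 6 rose and 4 fell in the same comparisons, with medians of 0.19, -0.11, 0.013 and 0.20, or 26.7%, 53.3%, 13.3% and 66.7% of the list. Pcnt, a scaffold of the centrosome, rose by 0.68 ± 0.15 at P75 against P18, and Tppp, a tubulin-binding protein of oligodendrocytes, fell by 0.52 ± 0.19 at 24 months against P18. All genes named from these lists as having risen or fallen passed in limma with an adjusted p under 0.05.

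**Figure D5:**
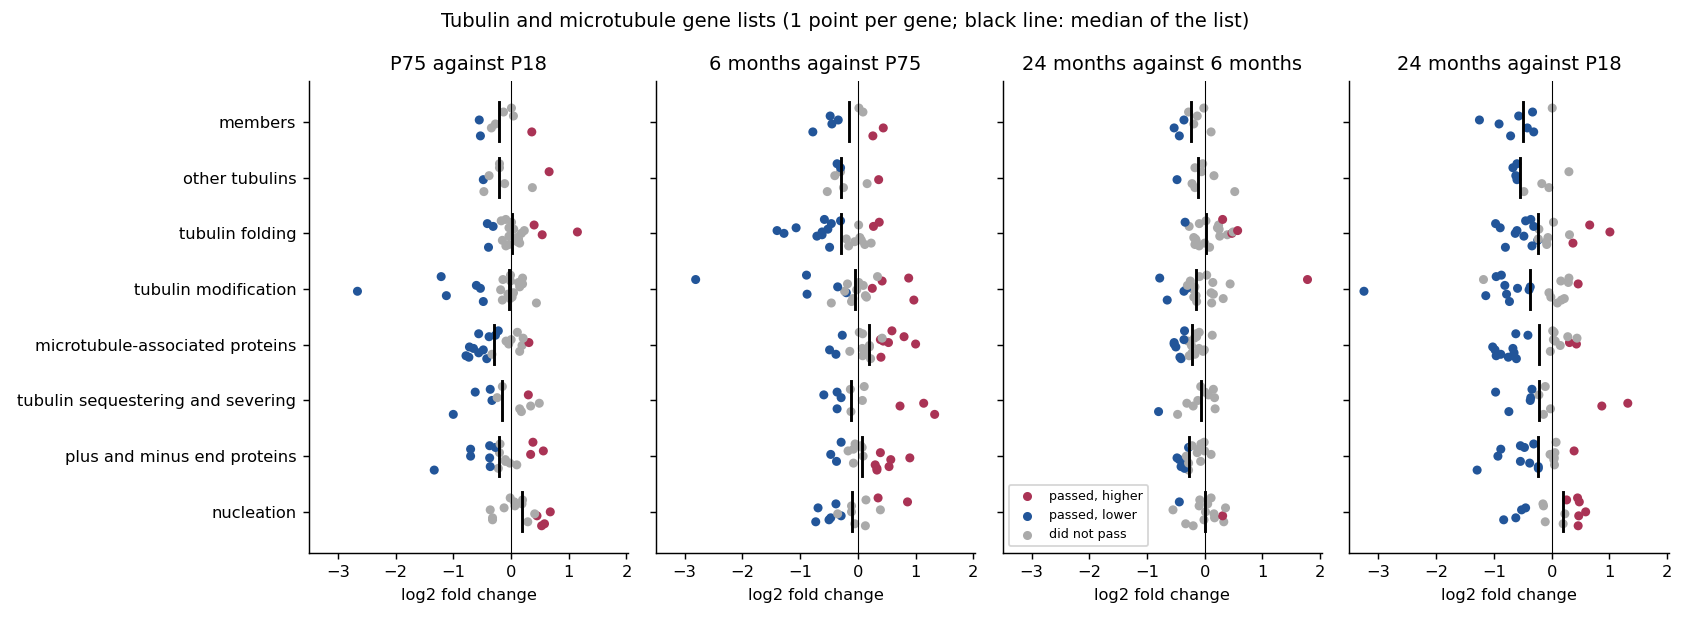
Log2 fold change (horizontal axes) of every tested gene of the members and of 7 lists of tubulin and microtubule genes (rows) in the 4 comparisons; red and blue points passed in limma, higher or lower at the later age, and black lines are medians. The member median is -0.50 in 24 months against P18, and single points reach -3.25 (Sirt2, 24 months against P18).

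Markers of other cells moved over the same ages, and their part in the tubulin results was not tested. Of all genes, 40.4% were called at P75 against P18 (21.7% higher and 18.7% lower). The share was 62.5% at 24 months against P18 (32.0% higher and 30.5% lower). All 7 markers of immature neurons fell at P75 against P18 (median -0.78) and at 24 months against P18 (median -1.01). In single samples their summed share was at least 0.158% at P18, between 0.0971% and 0.103% at P75, between 0.0724% and 0.0827% in 6-month samples and between 0.0709% and 0.0750% in 24-month samples. Of the 8 structural myelin genes, 0 rose and 7 fell at P75 against P18, or 87.5% called. At 24 months against P18, 0 rose and 5 fell, or 62.5% called, the same as the share of all genes. Their summed share was 6.41% to 8.65% in 24-month samples and 11.0% to 23.1% in P18 samples. Most of this was Mbp. With Mbp left out of the list and the total, it was 1.13% to 1.23% in 24-month samples and 1.70% to 2.92% in P18 samples. All 6 microglial markers rose at 24 months against P18, with a share of 0.0346% to 0.0453% in 24-month samples and 0.0153% to 0.0168% in P18 samples. Astrocyte markers had 2 up and 1 down of 6 in that comparison, precursor markers 1 up and 1 down of 5, and endothelial and mural markers 2 up and 2 down of 5. No marker of these lists was at 0 in all samples of an age.

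The genes whose course over the 12 samples was most like that of each member were found by the root mean square difference of log2 values after the mean of each gene was taken off, among 11576 genes. Tuba1b lay closest to Snap25 (0.079) and Tuba4a to Dnm1 (0.065), both genes of the synaptic vesicle cycle. Tubb2b lay closest to Sox8 (0.110), a transcription factor of the oligodendrocyte lineage, Tuba1a to Cyp26b1 (0.072), which degrades retinoic acid, and Tubb2a to Jakmip1 (0.093). The nearest genes were Puf60 (0.068) and the glycolytic enzyme gene Aldoa (0.072) for Tubb3, Eif3l (0.039), a subunit of a translation initiation factor, for Tubb5, and Gstm4 (0.096) for Tubb6. The median difference from a member to all candidate genes was 0.31 to 0.51. Between members the smallest difference was 0.157, for Tuba1b and Tubb3, followed by 0.160 for Tubb2a and Tubb3 and 0.162 for Tuba4a and Tubb5, whereas Tuba1a and Tuba1b, the closest pair in sequence, differed by 0.414.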

How the data were processed

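Values in the deposited table are a normalised signal: read counts of genes, divided by the authors by 1 size factor per sample and kept to 2 decimals. Named in the submitters' processing notes are TopHat, HTSeq, DESeq and build mm9, without versions, and library construction and strand setting are not given in the sources used here. Dividing each column by what 1 read was worth gave whole reads for 100.0% of the values checked (tolerance 0.0061). For 3 columns that worth was itself within 1% of 1. Only values up to an upper limit were checked, and all members but Tubb2b and Tubb6 lay above it in every sample. The tests were those of limma 3.58.1 (R 4.3.3), with its trended prior variance, on log2(value + 1), which understates changes of low genes, fitted to 12 samples in 4 ages. Genes reaching 10 in at least 3 samples were tested, two-sided, with Benjamini-Hochberg adjustment and a threshold of 0.05. The count tests edgeR 4.0.16 and DESeq2 1.42.0 were run on the recovered reads as alternatives, beside other pseudocounts, filters and scalings, a replicate block and leaving out each sample; edgeR called 5981, 7956, 3185 and 9345 genes in the 4 comparisons and limma 6051, 7859, 2876 and 9367. The fitting code was tested on simulated data.

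No replicate pair of an age agreed within sampling noise (chi-square per degree of freedom of at least 9.17). Members, comparisons and gene lists were chosen with earlier results of these data known. All members are named in each comparison. From each list up to 3 genes per direction and comparison are named, those that passed with a mean of at least 50 and the largest change, besides all other tubulins, and the genes most like each member were ranked among genes with a mean of at least 50, of which the text names 1 or 2 of the first 3 for each member. Listed genes not found in the table were not analysed here. Sequence stretches and transcript lengths come from GENCODE vM21 (GRCm38) and not from the build of the counts. The principal coding transcript of a gene was the longest of those tagged there as both principal and CCDS (consensus coding sequence). Tubb6 sequence is not shown, and some other sequences and genes are not reported here.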

Additional observations from a re-analysis of the deposited data

How the results depend on the processing

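Over 912 combinations of a member, a comparison and an alternative, 854 kept their direction and their side of the threshold, 28 kept the direction but no longer passed, 8 newly passed and 22 changed sign. The F test over all ages has no direction, so its combinations were judged by the threshold alone. Leaving out a sample of an age not compared, or fitting only the ages compared, cannot change a fold change, only its p. The 854 therefore include directions that were fixed in advance. The sign changes concerned Tubb3 and Tubb6 only, which did not pass in those comparisons. For P75 against P18 they were Tubb6 with TMM scaling (-0.0048) and quantile normalization (-0.082) and Tubb3 with quantile normalization (-0.14). With quantile normalization Tubb6 also turned to -0.038 at 6 months against P75 and to -0.23 at 24 months against P18. Leaving out 1 sample gave -0.091 to 0.16 for Tubb3 at P75 against P18, and for Tubb6 -0.098 to 0.13, -0.10 to 0.12, -0.11 to 0.039 and -0.039 to 0.095 in the 3 steps and the whole span. With total-count scaling, members called at 24 months against P18 were 4 and genes called at 24 months against 6 months 1782 in place of 2876. Leaving out 1 sample moved these to 4 to 7 members and 1244 to 3963 genes, and members called at 24 months against 6 months to 1 to 4; the cause was not tested. With total-count scaling the median log2 fold change of all genes was 0.14 at P75 against P18 (0.017 with the size factors of the authors), with 73.7% of called genes higher (53.7%) and 46.3% at 24 months against 6 months (56.5%), and with quantile normalization it was -0.11 at 24 months against P18 (-0.0051), with 42.6% higher (51.3%). Tubb5 passed at any age with DESeq2 (adjusted p = 0.0229), without P18 replicate 1 (0.0450) or without P75 replicate 2 (0.0426). The replicate numbers did not pair samples (correlations of same-numbered samples -0.18 to 0.16, with 3 of 18 over 0.1), and with the number as a replicate block 5871, 7656, 2583, 9186 and 11377 genes and 3, 6, 3, 7 and 6 members were called in the 4 comparisons and at any age. Without P18 replicate 3, chosen after seeing the data, the neuronal markers called at P75 against P18 were 7 in place of 4, and all genes called were 6335 in place of 6051. Depth limits Tubb6 most, the member with the lowest counts.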
